A study of Homo sapiens with 6 samples.

Results

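Axonemal dyneins are the motors that bend motile cilia and sperm flagella, and the genes described here encode their heavy, intermediate and light chains, the factors that assemble them in the cytoplasm, and the proteins that dock them onto the axoneme. Members were chosen by symbol: protein-coding genes whose current name starts with DNAH, DNAI, DNAAF or ODAD followed by a digit, plus DNAL1, DNAL4, DNALI1, ZMYND10, CCDC103, DYNLRB2, CCDC39 and CCDC40. This gave 40 genes of the 63140 in the count table, after 8 non-coding or pseudogene symbols with the same prefixes were left out, and 34 of the 40 had enough reads to be tested. The family was selected on a contrast whose results were already known, so its counts below are descriptions and not independent evidence of a direction.

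The study transfected HEK293T cells, a transformed line of human embryonic kidney origin that carries the SV40 large T antigen, with a duplex of the microRNA miR-34a or with AllStars, a commercial negative-control RNA. Both groups were therefore transfected with a small RNA, and neither carries an engineered genotype in the labels. Total RNA was collected 18 h later from 3 biological replicates per group and sequenced with a kit that does not mark strand. The 6 libraries held between 24728662 and 36650331 gene-assigned reads, and no pair within a group agreed within counting noise. Of the HEK293T markers NEFL, NEFM, VIM, KRT8, KRT18 and CDH2, all 6 passed the filter on low counts.

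Outer dynein arms supply most of the power of a ciliary beat, and inner arms, of several kinds, shape its waveform. The arms are built in the cytoplasm by chaperones and dynein axonemal assembly factors, carried into the cilium, and fixed on the doublet microtubules by docking complexes and by a ruler that sets their spacing. In multiciliated airway, ependymal and oviduct cells these genes are switched on by FOXJ1 and RFX transcription factors, and loss of many of them causes primary ciliary dyskinesia. HEK293T cells can form a primary cilium, which lacks dynein arms.

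Of the 34 tested members, 18 were higher with miR-34a than with the control, 0 were lower and 16 were not called (edgeR's quasi-likelihood test, Benjamini-Hochberg adjusted p under 0.05 over all 17427 tested genes). Over all tested genes, 5.38% were called higher and 6.7% lower. The median log2 fold change was 0.64 over the tested members and 0.00 over all tested genes, and 30 of the 34 members had a positive value, against 49.3% of all tested genes. In 23 of the 34, every miR-34a library lay above every control library, which held for 13.1% of all tested genes. Since these are bulk samples, more cells expressing a gene and more RNA per expressing cell cannot be told apart. Levels below are CPM, a gene's reads relative to its library's depth after TMM scaling, and fold changes are miR-34a over control with their standard error (SE).

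**Figure D1:**
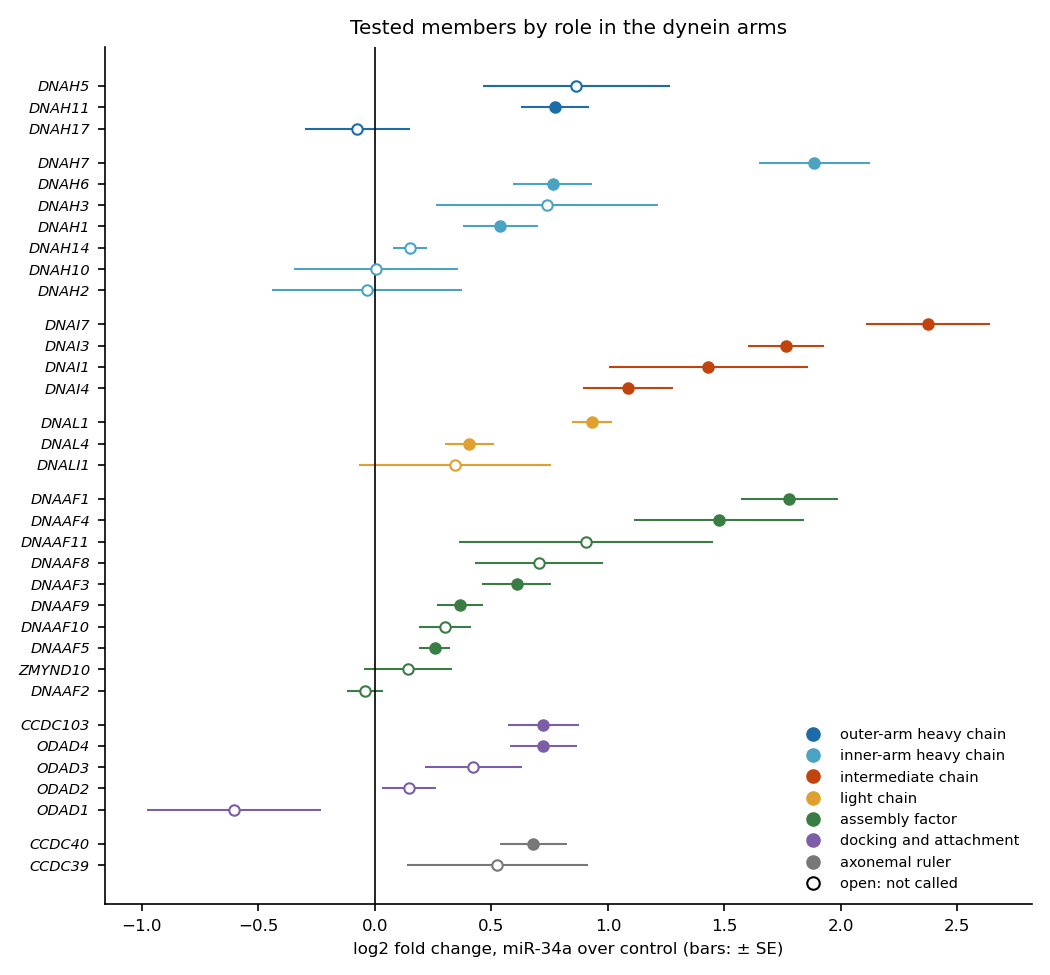
Log2 fold change (x axis, miR-34a over control, bars ± SE) of the 34 tested members, grouped and coloured by role. Filled points are the 18 called higher, open points the 16 not called, and all 4 tested intermediate chains are filled. Among these 4, DNAI1 reached the limit of the low-count filter in 3 miR-34a libraries and 1 control.

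Most members were expressed at low levels. In the controls, 11 of the 34 tested members had a mean under 1 CPM, and 4 of those 11 were called. On the scale of CPM per kilobase of merged exons, which allows levels of different genes to be compared, the highest control levels were 16.5 for DNAAF5, 10.4 for DNAAF2 and 5.29 for DNAL4. The tested heavy chains lay far lower on that scale, from 0.0176 for DNAH3 to 0.508 for DNAH1, apart from DNAH14 at 2.26. Of the tested members, 4 reached the filter's limit of 0.325 CPM in all 3 miR-34a libraries but not in all 3 controls (DNAH5, DNAH3, DNAI1 and DNAAF11), so a difference in that direction was favoured by the filter, and of these DNAI1 was called.

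The remaining 6 members did not pass the filter. DNAI2, an outer-arm intermediate chain, had no read in any of the 6 libraries, where the limit that a count of 0 allows, taken as 3 reads, is 0.0819 to 0.121 CPM. DNAH9, an outer-arm heavy chain of the distal cilium, had between 0 and 2 reads, and the light chain DYNLRB2 also had between 0 and 2. DNAH8, the testis paralogue of DNAH5, had 3, 4 and 0 reads in the controls and 2, 6 and 12 with miR-34a. The inner-arm heavy chain DNAH12 had 6 to 8 reads in the controls and 6 to 11 with miR-34a, and the assembly factor DNAAF6 had 0 to 2 and 3 to 10. Differences in these genes were not detectable at this depth.

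Among the 3 tested outer-arm heavy chains, DNAH11 rose. DNAH11, which sits in the proximal part of respiratory cilia, was at 7.03, 7.32 and 5.56 CPM in the controls and 8.86, 10.96 and 13.9 CPM with miR-34a. The groups did not overlap, and its log2 fold change was 0.77 (SE 0.15, adjusted p = 0.000651, edgeR). DNAH5, the outer-arm chain most often affected in primary ciliary dyskinesia, had 14, 16 and 8 reads in the controls and 17, 25 and 30 with miR-34a, a log2 fold change of 0.86 that missed the threshold (SE 0.40, adjusted p = 0.182, edgeR). DNAH17, the chain of the sperm flagellum, was at 2.29 ± 0.40 CPM in the controls and 2.15 ± 0.44 CPM with miR-34a (SD, n = 3), with overlapping groups.

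Of the 7 tested inner-arm heavy chains, DNAH7, DNAH6 and DNAH1 rose and the other 4 were not called. DNAH7, a single-headed inner-arm motor encoded on chromosome 2 (chr2:195737703-196068812, minus strand, GRCh38), was at 0.8996, 0.884 and 1.21 CPM in the controls and 2.98, 3.49 and 4.60 CPM with miR-34a. Its lowest miR-34a library was above its highest control by more than the range within either group, and the fold change of 3.70 (log2 1.89, SE 0.24, adjusted p = 2.98e-06, edgeR) ranked 12 among the 17427 tested genes. DNAH6, another inner-arm motor, was at 2.98, 2.53 and 2.95 CPM in the controls and 4.45, 4.999 and 4.87 CPM with miR-34a, so that both groups were tight and apart (log2 fold change 0.76, SE 0.17, adjusted p = 0.00296, edgeR).

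DNAH1, an inner-arm chain required in the sperm flagellum, was at 7.07, 7.80 and 6.28 CPM in the controls and at 8.10, 8.56 and 13.8 CPM with miR-34a. One library, miR-34a replicate 3, stood well above the other two, and without it the log2 fold change went from 0.54 (SE 0.16, adjusted p = 0.0274, edgeR) to 0.24 with an adjusted p of 0.379. When control replicate 2 was dropped the log2 fold change was 0.62 with an adjusted p of 0.0574, and when control replicate 3 was dropped it was 0.46 with an adjusted p of 0.124. The other 3 fits without 1 library kept the call. DNAH14, the most abundant heavy chain, was at 44.1, 45.4 and 43.9 CPM in the controls and 51.0, 50.7 and 46.6 CPM with miR-34a. These groups did not overlap, but the log2 difference of 0.15 missed the threshold (SE 0.07, adjusted p = 0.201, edgeR).

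The heavy chains DNAH10 and DNAH2, the pair that forms the 2-headed inner arm, were near no difference, with log2 values of 0.00 (SE 0.35) and −0.03 (SE 0.41). DNAH3 had 8, 7 and 8 reads in the controls and 11, 10 and 19 with miR-34a, a log2 fold change of 0.74 that was not called (SE 0.48, adjusted p = 0.372, edgeR). Inner-arm heavy chains that rose and ones with no detectable difference were thus found side by side.

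All 4 tested intermediate chains rose, and their median log2 fold change was 1.60, the highest of any role. Among them, DNAI1 reached the filter's limit in 3 miR-34a libraries and 1 control, so its inclusion favoured a higher value. Intermediate chains form the base of an arm, where they hold the heavy chains together and bind the doublet. DNAI7 (older symbol CASC1, chr12:25108420-25195162, minus strand, GRCh38) had 22, 15 and 20 reads in the controls and 77, 113 and 116 with miR-34a. That is 0.8996, 0.457 and 0.622 CPM against 3.06, 3.87 and 3.14 CPM, a 5.18-fold difference (log2 2.37, SE 0.27, adjusted p = 5.07e-07, edgeR). By fold change DNAI7 ranked 3 among all tested genes, the highest of any member.

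DNAI3 (older symbol WDR63, chr1:84999147-85133138, plus strand) belongs with the 2-headed inner arm. It had 74, 110 and 164 reads in the controls and 277, 452 and 473 with miR-34a, a mean of 3.83 ± 1.11 CPM against 13.1 ± 2.25 CPM (SD, n = 3) and 3.39-fold higher (log2 1.76, SE 0.16, adjusted p = 2.65e-08, edgeR). DNAI4 (older symbol WDR78), an intermediate chain of the same arm, was at 1.84, 2.32 and 2.24 CPM in the controls and 3.62, 5.31 and 4.70 CPM with miR-34a, 2.12-fold higher (SE 0.19 on the log2 scale, adjusted p = 0.000278, edgeR). Both intermediate chains thus rose while DNAH2 and DNAH10, the heavy chains of that arm, had 10 to 32 reads per library and were not called; whether the responses of the chains differ was not tested.

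DNAI1, the outer-arm intermediate chain whose partner DNAI2 had no reads, had 5, 11 and 9 reads in the controls and 16, 27 and 26 with miR-34a. Its groups did not overlap, and its log2 fold change was 1.43 (SE 0.43, adjusted p = 0.0274, edgeR). This call rested on few reads, and it was lost in 5 of the 6 fits that left out 1 library, with adjusted p up to 0.146 and log2 fold changes of 1.27 to 1.60 over the alternatives.

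**Figure D2:**
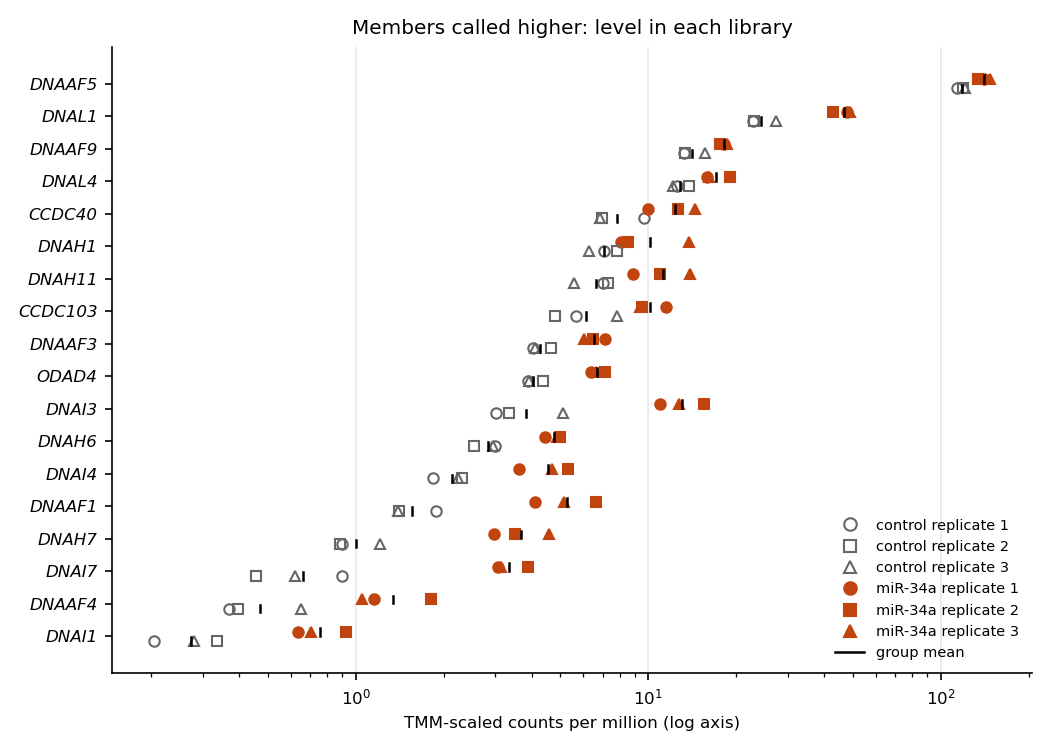
CPM (log axis) in each of the 6 libraries for the 18 members called higher, ordered by control level. Open grey symbols are control replicates, filled orange symbols miR-34a replicates and black ticks group means, and for all 18 the lowest miR-34a library lies above the highest control.

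Of the 3 tested light chains, DNAL1 and DNAL4 rose. DNAL1, which binds the motor domain of an outer-arm heavy chain, was at 22.9, 23.0 and 27.4 CPM in the controls and 47.8, 42.8 and 49.1 CPM with miR-34a. It was the best-measured of the larger changes, with 560 to 1817 reads per library and a 1.91-fold difference (log2 0.93, SE 0.09, adjusted p = 2.73e-08, edgeR). DNAL4, a light chain of the outer arm, was at 12.6, 13.8 and 12.2 CPM in the controls and 15.8, 19.1 and 16.1 CPM with miR-34a (log2 fold change 0.41, SE 0.11, adjusted p = 0.0105, edgeR). Dropping control replicate 3 took the adjusted p of DNAL4 to 0.0631, and dropping miR-34a replicate 2 took it to 0.0998. DNALI1, a light chain of inner arms, had 11 to 17 reads in the controls and 11 to 28 with miR-34a and was not called (log2 0.34, SE 0.41).

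The 3 tested light chains each hold a match to at least 6 letters of the miR-34a seed site. The seed is bases 2 to 8 of the microRNA, which pairs with targets to lower their level or translation. The mature sequence (RefSeq, GRCh38.p14, chr1:9151735-9151756, minus strand) is shown with its seed in capitals, followed by 1 match in the 3′ UTR of each of these light chains, with the matched letters in capitals:
hsa-miR-34a-5p: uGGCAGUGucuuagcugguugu
DNAL4: cctgggagcccCACTGCCctgccatcccca
DNALI1: cagccttgggaACTGCCAactcaaattcta
DNAL1: ttagctgataaaACTGCCtttggtttatgc
The DNAL4 match (CACTGCC, pairing with the whole seed) lies at chr22:38779083-38779089 on the minus strand, in the last of 4 exons. The DNALI1 match (ACTGCCA, seed bases with an A opposite the first base) is at chr1:37565345-37565351 on the plus strand, in the last of 6 exons. The DNAL1 match holds only 6 letters (ACTGCC) and lies at chr14:73698400-73698405 on the plus strand, in the last of 8 exons. The 3′ UTRs searched were 7790 nt long for DNAL1, 941 nt for DNAL4 and 1796 nt for DNALI1. Each also held further matches of 6 letters, which are not printed.

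Searched on the sense strand of the 3′ UTR of the transcript with the longest coding sequence (GENCODE release 29), a match of at least 7 letters was found in 2 of 31 classed members (6.45%), namely DNAL4 and DNALI1. The share over tested protein-coding genes was 20.9% of 12940. A match of 6 letters and none longer was found in 1 of the 31 members, DNAL1, and in 1296 of the 12940 genes. Matches of at least 6 letters were thus common over the tested genes. Among the 31 classed members, only DNAL1, DNAL4 and DNALI1 held one. With the 3′ UTRs of all protein-coding transcripts, a match of at least 7 letters was found in 3 of 32 members (9.38%), DNAAF10 being added. The share over all such genes was 26%. DNAL4 rose, and neither DNALI1 nor DNAAF10 was called. A match is a run of letters and not a measured site. The lengths of the 3′ UTRs, on which the share with a match depends, were not compared between members and other genes. DNAH1, DNAH3 and DNAH14 had no 3′ UTR of 50 nt or more on that transcript and were not classed.

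Of the 10 tested assembly factors, DNAAF1, DNAAF4, DNAAF3, DNAAF9 and DNAAF5 rose and the other 5 were not called. DNAAF1 (chr16:84145287-84178767, plus strand), a leucine-rich repeat protein needed for both outer and inner arms, was at 1.88, 1.40 and 1.40 CPM in the controls and 4.09, 6.61 and 5.16 CPM with miR-34a. The fold change of 3.43 ranked 18 among all tested genes (log2 1.78, SE 0.21, adjusted p = 1.07e-06, edgeR). DNAAF4, a co-chaperone of HSP90 with tetratricopeptide repeats, had 9, 13 and 21 reads in the controls and 29, 53 and 39 with miR-34a (log2 fold change 1.48, SE 0.36, adjusted p = 0.00734, edgeR). Without control replicate 2 the DNAAF4 adjusted p was 0.0521, and without miR-34a replicate 2 it was 0.0817.

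DNAAF3, which acts at a late step of assembly, was at 4.05, 4.66 and 4.10 CPM in the controls and 7.11, 6.47 and 6.06 CPM with miR-34a (log2 fold change 0.61, SE 0.15, adjusted p = 0.0062, edgeR). DNAAF9 (older symbol C20orf194) was at 13.3, 13.3 and 15.7 CPM in the controls and 18.2, 17.7 and 18.6 CPM with miR-34a, 1.29-fold higher with an adjusted p of 0.015 (edgeR). DNAAF5, a HEAT-repeat scaffold and the most abundant member, was at 114, 119 and 121 CPM in the controls and 141, 134 and 148 CPM with miR-34a, 1.19-fold higher with an adjusted p of 0.0133 (edgeR). The DNAAF9 call was lost without control replicate 2 (0.0779) and without miR-34a replicate 3 (0.0533), and the DNAAF5 call without miR-34a replicate 3 (0.0659).

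The assembly factors that were not called included the second most abundant, DNAAF2, a PIH-domain protein. DNAAF2 was at 30.7 ± 0.53 CPM in the controls and 29.8 ± 0.94 CPM with miR-34a (SD, n = 3), a log2 difference of −0.04 with an SE of 0.08. ZMYND10, which works with a chaperone on heavy-chain stability, was at 2.89 ± 0.38 CPM and 3.21 ± 0.36 CPM in the same order, again with overlapping groups. DNAAF10 (older symbol WDR92) was at 12.3, 9.60 and 11.03 CPM in the controls and 13.2, 13.97 and 13.3 CPM with miR-34a. Its groups did not overlap, but it missed the threshold (log2 0.30, SE 0.11, adjusted p = 0.0799, edgeR), and over the fits without 1 library its adjusted p ran from 0.0213 (without control replicate 1, the one such fit that called it) to 0.328 (without control replicate 2).

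DNAAF8 (older symbol C16orf71) had 31, 25 and 49 reads in the controls and 43, 65 and 68 with miR-34a (log2 0.71, SE 0.28, adjusted p = 0.101, edgeR). DNAAF11 (older symbol LRRC6) had 9, 8 and 2 reads and 11, 13 and 13 in the same order (log2 0.91, SE 0.54, adjusted p = 0.329, edgeR). For both, the fitted change was as large as that of several called members, with a wider error. Across the 10 tested assembly factors the log2 fold change ran from −0.04 to 1.78, with a median of 0.49.

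Among the 5 docking and attachment proteins, CCDC103 and ODAD4 rose. CCDC103, a microtubule-binding protein that helps fix the arms, was at 5.68, 4.82 and 7.83 CPM in the controls and 11.5, 9.55 and 9.35 CPM with miR-34a (log2 fold change 0.72, SE 0.15, adjusted p = 0.0017, edgeR). ODAD4 (older symbol TTC25), a docking-complex subunit, was at 3.88, 4.36 and 3.92 CPM in the controls and 6.36, 7.12 and 6.62 CPM with miR-34a, with an equal fold change (log2 0.72, SE 0.15, adjusted p = 0.00109, edgeR). The groups did not overlap for either gene, and for ODAD4 the gap between them was larger than the range within each group.

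The docking subunits ODAD3, ODAD2 and ODAD1 were not called, and in each the groups overlapped. ODAD3 had 46 to 116 reads in the controls and 99 to 121 with miR-34a (log2 0.42, SE 0.21, adjusted p = 0.218, edgeR), and ODAD2 stood at 9.57 ± 1.06 CPM and 10.6 ± 0.58 CPM (SD, n = 3). ODAD1, which had the lowest fold change of any member, had 19, 47 and 26 reads in the controls and 9, 23 and 30 with miR-34a (log2 −0.61, SE 0.37, adjusted p = 0.345, edgeR). Of the 2 ruler proteins, CCDC40 rose, from 9.65, 6.95 and 6.84 CPM in the controls to 9.97, 12.6 and 14.5 CPM with miR-34a (log2 0.68, SE 0.14, adjusted p = 0.00176, edgeR). CCDC39, with which CCDC40 forms a coiled-coil dimer, had 12 to 17 reads in the controls and 20 to 22 with miR-34a, a log2 difference of 0.53 that was not called (SE 0.39, adjusted p = 0.456, edgeR).

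**Figure D3:**
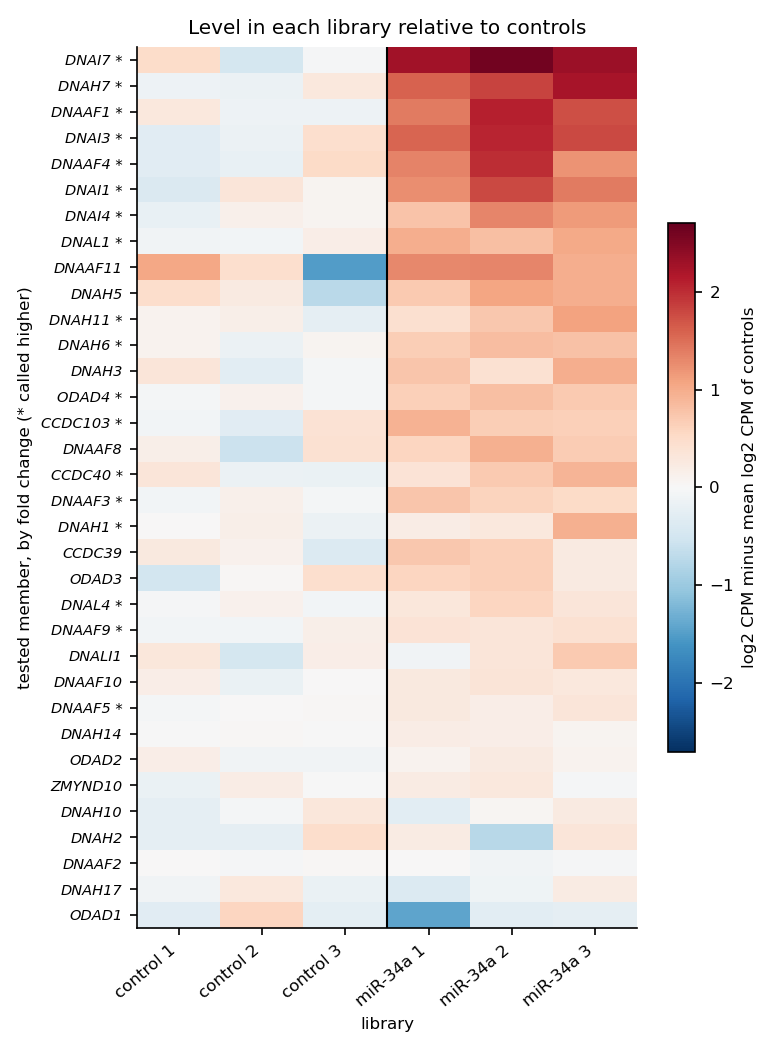
Log2 CPM of each tested member in each library minus the mean log2 CPM of the 3 controls, with members in rows by fold change and libraries in columns. Asterisks mark the 18 called members, whose 3 miR-34a columns are all above 0, and values run from −1.51 to 2.61.

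Within the miR-34a group the called members did not share 1 extreme library. The highest value was in replicate 2 for 9 of the 18, in replicate 3 for 7 and in replicate 1 for 2, and the lowest value was in control replicate 1 for 9, control replicate 3 for 5 and control replicate 2 for 4. The intermediate chains DNAI7, DNAI3, DNAI1 and DNAI4 were all highest in miR-34a replicate 2, as were DNAAF1, DNAAF4, DNAL4, DNAH6 and ODAD4. The heavy chains DNAH11, DNAH7 and DNAH1 were highest in replicate 3.

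Of the 18 calls, 12 were kept in each of the other fits tried, DNAH11, DNAH7, DNAH6, DNAI7, DNAI3, DNAI4, DNAL1, DNAAF1, DNAAF3, CCDC103, ODAD4 and CCDC40. The other 6 were each lost when single libraries were left out. Leaving out 1 library at a time gave 14 to 18 members higher and 0 lower.

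Reads of a member could not always be told from those of another gene. Of the tested members, 13 share exon sequence with another tested gene, among them 6 of the 18 called (CCDC103, DNAAF1, DNAAF4, DNAAF5, DNAH11 and DNAL4). CCDC103 overlaps GFAP on the opposite strand over 57.3% of its exons and EFTUD2, at 387 CPM in the controls, over 9.99%. DNAAF1 overlaps TAF1C (74.0 CPM in the controls) on the opposite strand over 5.78%, and DNAH11 overlaps CDCA7L (46.5 CPM) over 5.21%. None of these partners was called changed, the log2 differences being −0.34 for GFAP, −0.03 for EFTUD2, −0.13 for TAF1C and −0.04 for CDCA7L. Among the 21 tested members that share no exons with a tested gene, 12 were called higher.

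Some exon sequence is also shared with genes that had few or no reads in these libraries. FAM187A covers 88.8% of the exons of CCDC103 on the same strand and had 0 reads in all 6 libraries. The read-through gene DNAAF4-CCPG1 covers 40.4% of DNAAF4 and also had 0, and an unnamed coding gene covers 79.8% of CCDC39 with 0. For DNAAF3, a coding gene at 0 reads covers 14.5% of its exons and the antisense gene DNAAF3-AS1, at 0 to 2 reads, covers 27.2%. For DNAAF10, a coding gene at 0 to 1 reads covers 29.2%. How reads in such shared stretches were counted is not stated, so the levels of these 5 members carry that limit in both groups.

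RFX factors bind an X-box, a pair of inverted half-sites, in promoters of ciliary genes. Promoters from 250 bases before to 50 after the RefSeq start (GRCh38.p14) were available for 31 of the 40 members and were searched for GTTNCC followed after 1 to 3 bases by GGNAAC, with at most 1 mismatch in the 10 fixed bases. The motif is its own reverse complement, so both strands were searched at once. A match was found in 11 of 31 members (35.5%), against 5.98% of 27305 genes with a promoter and 7.06% of 11032 tested protein-coding genes. By call, it was found in 5 of 12 members called higher (41.7%) and in 3 of 13 tested members not called (23.1%). An exact match was found in 8.33% of the former and 7.69% of the latter. Only 12 of the 18 called members had a promoter here, and whether the shares differ was not tested. DNAH1 and ODAD3 held the only exact matches, and DNAH1 also held a second match, with 1 mismatch, which is not printed. For each called member with a match, and for ODAD3, 1 match is shown 5′ to 3′ on the gene's strand with the motif in capitals:
DNAH1: aggctgatGTTGCCATGGCAACccggatag
ODAD3: gggaggcgGTTACCTGGCAACcgagagatg
CCDC103: ttagcgcaGTTGCTAGGCAACcacagctgc
DNAH6: gttgaggcGTTGCCTGGCGACgtgttactc
DNAI1: gctggtcgGTTGCTGGGTAACcgcgtcagg
DNAH11: gggacaccGTCCCCCGGGAAACgggacgcg
The first of these lies at chr3:52316206-52316235, 105 bases before the DNAH1 start at the motif's first base. The others lie at chr19:11435152-11435181 (ODAD3, minus strand), chr17:44899705-44899734 (CCDC103), chr2:84516414-84516443 (DNAH6), chr9:34458798-34458827 (DNAI1) and chr7:21543003-21543032 (DNAH11). An exact match was present in 0.875% of all genes with a promoter. The motif was also matched in members with few or no reads, DNAI2, DNAH12 and DNAAF6, and in DNAH2 and DNALI1, which were not called. Promoters of DNAI4, DNAAF1, DNAAF3, DNAAF4, DNAAF9 and ODAD4 were not used here. The called members DNAI7, DNAI3, DNAH7, DNAL1, DNAL4, DNAAF5 and CCDC40 had no match in this window.

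The other genes around the dynein arms were read as 4 lists. Beside their counts, 5.38% of all tested genes were called higher and 6.7% lower. The limit on shared exons applies to the lists too. Called list genes that share exon sequence with another tested gene are DYNC1LI2, CCDC65, DRC3, GAS8, IQCD, PIH1D2, TTC12, CFAP298, HSP90AA1 and FOXJ1. Of 15 cytoplasmic dynein subunits and shared light chains, all tested, 4 were higher and 0 lower, with a median log2 fold change of 0.13. Of these, 3 belong to dynein-2, the motor that returns intraflagellar transport trains to the base of a cilium. The light intermediate chain DYNC2LI1 was at 31.7, 34.5 and 34.2 CPM in the controls and 58.0, 58.7 and 57.0 CPM with miR-34a (log2 0.79, adjusted p = 2.84e-08, edgeR). The intermediate chain DYNC2I1 rose by 0.69 (adjusted p = 2e-07, edgeR) and the heavy chain DYNC2H1 by 0.42 (adjusted p = 0.00145, edgeR). The fourth, DYNC1LI2 of cytoplasmic dynein-1, rose by 0.40 (adjusted p = 0.000288, edgeR), while the dynein-1 heavy chain DYNC1H1 was not called (log2 0.16). Not every dynein-2 subunit was called: the intermediate chain DYNC2I2 had a log2 value of 0.03 (SE 0.08) and the light chain DYNLT2B one of 0.01 (SE 0.30).

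Of 13 regulators of the inner arms, 8 were tested, 6 were higher and 0 lower. The shares over all tested genes were 5.38% higher and 6.7% lower. The median log2 fold change of these regulators was 0.69, close to that of the dynein members. The nexin-dynein regulatory complex, which links neighbouring doublets, contributed IQCG (log2 0.82, adjusted p = 5.82e-05, edgeR), IQCD (0.96, 0.000889), DRC3 (0.70, 0.000192), CCDC65 (0.70, 0.00457) and GAS8 (0.32, 0.0223). The sixth was CFAP43, which tethers the 2-headed inner arm (0.67, 0.0263). CFAP44, the other tether gene of the list, was more abundant, at 23.2 CPM in the controls and 26.1 CPM with miR-34a. CFAP44 was not called (log2 0.175, adjusted p = 0.23, edgeR), and its groups overlapped. The GAS8 call was lost in 3 of the fits that left out 1 library, and that of CFAP43 in 4. The 5 regulators that were not tested had between 0 and 17 reads per library.

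Of 15 other assembly and chaperone factors, 14 were tested, 3 were higher and 2 lower, with a median of 0.14. The shares over all tested genes were 5.38% higher and 6.7% lower. PIH1D2, a PIH-domain protein related to DNAAF2 and DNAAF6, rose from 3.72, 3.60 and 3.76 CPM to 8.10, 9.28 and 10.1 CPM (log2 1.32, adjusted p = 2.81e-07, edgeR). TTC12, an assembly factor of single-headed inner arms, rose by 0.49 (adjusted p = 0.000135, edgeR), and the general chaperone HSP90AA1 by 0.24 (adjusted p = 0.0253, edgeR). FKBP8 was lower by a log2 value of −0.26 (adjusted p = 0.0203, edgeR) and CFAP298 by −0.31 (adjusted p = 0.0218, edgeR). The calls of HSP90AA1, FKBP8 and CFAP298 were each lost in at least 3 of the fits that left out 1 library, and those of PIH1D2 and TTC12 in none.

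Of 11 transcriptional regulators of motile-cilium genes, 9 were tested, 2 were higher and 3 lower, with a median of −0.10. The shares over all tested genes were 5.38% higher and 6.7% lower. FOXJ1, the main switch of motile ciliogenesis, had 0, 10 and 0 reads in the controls and 11, 18 and 18 with miR-34a. It reached the filter's limit in the 3 miR-34a libraries and in 0 of the controls, so the filter favoured a higher value, and its adjusted p of 0.0399 (edgeR) was lost in 5 of the 6 fits without 1 library and with library size in place of TMM scaling. RFX7 was higher by 0.28 (adjusted p = 0.0492, edgeR), a call lost with DESeq2 (0.0513) and in 4 of the fits without 1 library. RFX1, RFX2 and RFX3 were not called (log2 0.25, −0.10 and 0.29). MYB, which acts early in multiciliated differentiation, was lower, at 6.71, 5.73 and 5.16 CPM in the controls and 2.90, 2.91 and 3.11 CPM with miR-34a (log2 −0.97, adjusted p = 0.00015, edgeR). MCIDAS (log2 −0.61, adjusted p = 0.0344, edgeR) and TP73 (−0.39, 0.0256) were also lower, in calls that were lost in 4 and 3 of the fits without 1 library. For the called TP73 and RFX7, the control and miR-34a groups overlapped.

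**Figure D4:**
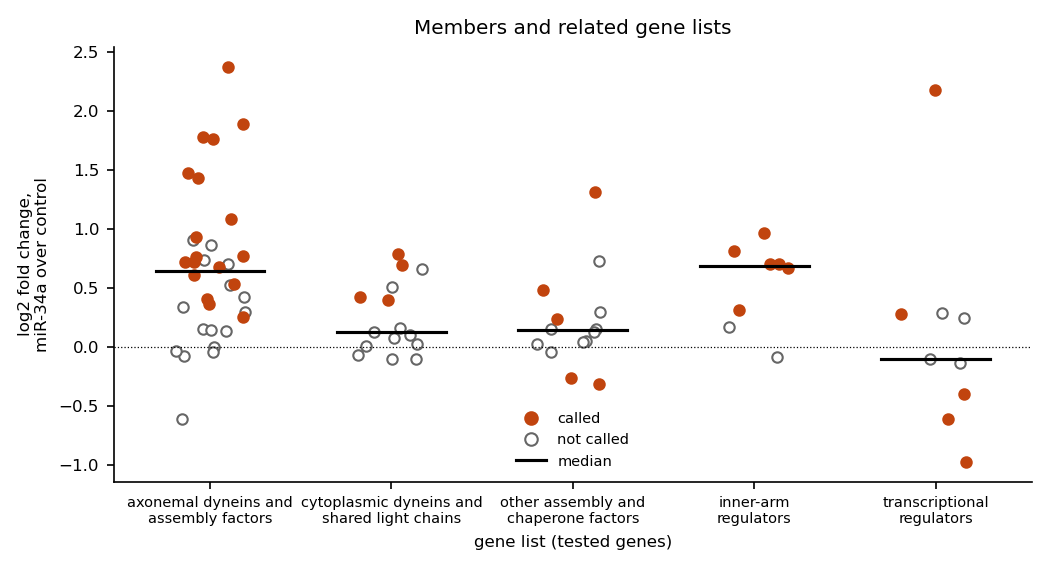
Log2 fold change (miR-34a over control) of each tested gene among the members and the 4 related lists, with horizontal jitter, filled points for called genes and a bar at the median. The medians are 0.64 for the members, 0.13, 0.14, 0.69 and −0.10 for the lists in the order shown.

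Markers of multiciliated cells were read beside the dynein genes, with 5.38% of all tested genes called higher and 6.7% lower. Of 9 such markers, 7 were tested, 3 were higher (FOXJ1, RSPH1 and ROPN1L) and 1 was lower (MCIDAS). All 3 higher ones reached the filter's limit in the 3 miR-34a libraries. In the controls, FOXJ1 reached it in 0 libraries and RSPH1 and ROPN1L in 2 each, so the filter favoured a higher value. The summed level of the 9 markers was 10.3 to 11.1 CPM in the controls and 10.5 to 13.8 CPM with miR-34a. These ranges overlap, but the sum includes MCIDAS, at a mean of 4.19 CPM in the controls and 2.71 CPM with miR-34a. MCIDAS went opposite to the 3 called higher, so the overlap does not show that the other markers were unchanged. SNTN and TEKT1, found in mature motile cilia, had 0 reads in all 6 libraries. Of the 6 HEK293T markers, NEFL and NEFM were lower and 0 were higher, and the sum was 596 to 655 CPM in the controls and 539 to 573 CPM with miR-34a. Without 1 library at a time, the calls of ROPN1L, NEFM and NEFL were lost in 3, 4 and 1 of 6 fits. Of the called markers, FOXJ1, RSPH1 and NEFM share exon sequence with another tested gene. The part of either marker set in the dynein results was not tested.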

How the data were processed

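The deposited table holds whole-number read counts per Ensembl gene for 6 HEK293T libraries. Per the submitters' processing notes the authors used STAR 2.7.11a, featureCounts (Subread 2.0.3), edgeR 3.42.4 and GRCh38; annotation release, strand setting and treatment of shared reads: not given in the sources used here. Per the labels' protocols the libraries were made with TruSeq RNA v2.

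The counts were fitted over the whole table with edgeR 4.0.16 (filterByExpr, minimum count 10, TMM scaling with factors of 0.981 to 1.016, group as the only term, quasi-likelihood test) in R 4.3.3, and p-values were Benjamini-Hochberg adjusted over 17427 genes. The SE is the log2 fold change divided by the root of the F statistic. Alternatives were DESeq2 1.42.0, limma 3.58.1 (voom), library-size scaling, other filters, the replicate number as a block and leaving out each library. The fit was tested on simulated counts with the same dispersion for all genes and changes set only in genes above a minimum level. That simulation does not cover the members with the fewest reads or the smallest called changes. Symbols came from a gene-name table, exons and 3′ UTRs from GENCODE release 29. The members and lists were chosen with earlier results of these data known. Every tested member is named; from each list, called genes are named, at most 5 by adjusted p, and other list genes named were picked after their values were seen.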

Additional observations from a re-analysis of the deposited data

How the results depend on the processing

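The number of members called higher, 18 of 34, was 16 with DESeq2, which gave no adjusted p for 10 members (DNAI1 and DNAAF4 among them), 18 with library-size scaling and 18 with voom. It was 18 of 39 without a filter and 17 of 25 with at least 1 CPM in 3 libraries, and in none of these fits was a member called lower. With the replicate block it was 18, and the called genes named in the text that lost their call were HSP90AA1 (log2 0.24, adjusted p = 0.113) and the marker NEFM (log2 −0.22, adjusted p = 0.0757). Same-numbered libraries did not deviate together (r = −0.025, 0.022 and −0.076 for numbers 1 to 3). Without 1 library at a time, the fold changes of 3 members near 0 changed sign: the log2 values ran from −0.253 to 0.083 for DNAH17, from −0.134 to 0.176 for DNAH10 and from −0.255 to 0.26 for DNAH2. The number of list genes called lower, 5 of 46, fell to between 2 and 4, and the number called higher was 10 to 15 over the alternatives. The cause was not tested. The 6 member calls lost without 1 library kept a positive fold change in each of those fits.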
